A study of Mus musculus with 6 samples.

Results

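Amino acid transporter families were followed in the whole pancreas of Sirt1-deficient mice (Pdx1Cre;Sirt1ex4F/F, 3 pancreata) and their controls (Pdx1Cre, 3 pancreata), all males of 6 months. Genes were taken by name: every gene of the Slc1, Slc3, Slc7, Slc36, Slc38 and Slc43 families that had a transcript cluster with its symbol alone, leaving out Slc7a11. A transcript cluster is the group of array probes assigned to a gene, and the one with the highest mean over the 6 arrays was used. This gave 43 of 22180 genes measured, 41 of them transporter genes and 2 (Slc7a6os and Slc36a1os) genes on the opposite strand whose names the rule also takes. Of the transporter genes, 7 belonged to Slc1, 2 to Slc3, 14 to Slc7, 4 to Slc36, 11 to Slc38 and 3 to Slc43. Total RNA of each pancreas was hybridized to 1 array, so the p-values measure the spread between mice. In both groups Cre recombinase is driven by the Pdx1 (Ipf1) promoter, and the controls carry it with wild-type Sirt1. In the Sirt1-deficient mice it removes exon 4 of the floxed Sirt1 gene, in exocrine and endocrine cells of the pancreas. The study describes this driver as mosaic, above all among exocrine cells, while most islet cells seem to be recombined. Exocrine cells with an intact Sirt1 gene may therefore be part of the RNA measured here. The vessels, fibroblasts and immune cells of the pancreas lie outside the lineage of these cells. In such bulk RNA, fewer cells of a type and less RNA per cell cannot be told apart.

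Amino acids cross the cell membrane through carriers that differ in the amino acids they take and in what drives them. Slc1 members couple acidic or small neutral amino acids to sodium. Slc7 holds the cationic amino acid transporters and the light chains, most of which need an Slc3 heavy chain to reach the membrane and exchange one amino acid for another. Slc38 members carry glutamine and other neutral amino acids with sodium (systems A and N), several Slc36 members carry small amino acids with protons, and Slc43a1 and Slc43a2 carry neutral ones by facilitated diffusion. Acinar cells of the pancreas make large amounts of secretory protein and depend on this supply. When amino acids run short or proteins misfold, the transcription factor ATF4 induces several of these genes through C/EBP-ATF elements.

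Sequences before the start sites of 4 genes with an unadjusted p under 0.05 between the genotypes are shown first, with motif matches in capitals. RefSeq (GRCm38.p6) gave windows for 32 of the 43 genes, and Slc1a5, also under 0.05, was not among them. The 250 bases before each start were searched on both strands for the C/EBP-ATF element (TGATGNAA), the E-box (CACGTG), the CCAAT box (CCAAT) and the TATA box (TATAAA). For Slc38a4, Slc1a4 and Slc7a8, which lie on the minus strand and are shown 5′ to 3′ along it, the window before the outermost start of the gene is given.
Slc38a4 (chr15:97055957-97056206): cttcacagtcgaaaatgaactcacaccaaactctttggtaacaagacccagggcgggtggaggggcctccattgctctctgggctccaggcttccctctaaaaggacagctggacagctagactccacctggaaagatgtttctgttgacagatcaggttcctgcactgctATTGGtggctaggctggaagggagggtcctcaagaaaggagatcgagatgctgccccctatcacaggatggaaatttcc
Slc1a4 (chr11:20332714-20332963): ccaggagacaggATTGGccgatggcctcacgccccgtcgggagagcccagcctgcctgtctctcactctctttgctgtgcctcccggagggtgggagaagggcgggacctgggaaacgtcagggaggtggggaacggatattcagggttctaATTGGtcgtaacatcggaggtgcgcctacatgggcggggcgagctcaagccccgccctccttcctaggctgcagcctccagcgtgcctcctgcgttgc
Slc7a8 (chr14:54781887-54782136): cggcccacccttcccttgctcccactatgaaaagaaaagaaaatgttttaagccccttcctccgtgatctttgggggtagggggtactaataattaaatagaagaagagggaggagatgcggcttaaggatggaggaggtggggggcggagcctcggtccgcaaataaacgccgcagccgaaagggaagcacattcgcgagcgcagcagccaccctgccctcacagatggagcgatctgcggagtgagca
In the windows shown, Slc38a4 held 1 CCAAT box read on the opposite strand, Slc1a4 held 2, and Slc7a8 held none of the 4 motifs. The C/EBP-ATF element was found in 1 of the 32 genes, Slc7a7, at 2 places before different start sites, shown along the minus strand, on which the gene lies.
Slc7a7 (chr14:54418067-54418096): ccgcttgggctTGATGAAAggttcactggg
Slc7a7 (chr14:54417927-54417952): tagaagcTGATGCAAcagcttccccg
These were 2 of 43 windows of the families (4.65%), against 3.45% of the 32851 windows of all genes. The E-box stood in 7 windows (16.3%, against 6.02% of all), among them those of Slc36a1, Slc38a5 and Slc38a7. The CCAAT box stood in 12 windows (27.9%, against 33.8%) and the TATA box in 6 (14%, against 12.4%). A match describes the letters in these windows and no binding was measured. Bases after the start sites were not searched, so a gene without a match here may hold the motif elsewhere.

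The largest signals of these families came from heteromeric and glutamine transporters. Slc7a8, which encodes the light chain LAT2 for neutral amino acids, read a mean log2 value of 11.64 over the 6 arrays, above 99.7% of all genes. Slc3a2, the heavy chain 4F2hc (CD98) that pairs with it, read 11.39, and Slc7a5, the light chain LAT1 for large neutral amino acids, 10.70. The glutamine carriers Slc38a2 (SNAT2, system A), Slc38a3 (SNAT3, system N) and Slc38a5 (SNAT5, system N) read 10.51, 10.47 and 9.81. These 6 genes lay above the 98th percentile of the means of all genes tested, and 9 of the 43 lay above the 95th, with Slc38a10, Slc1a5 and Slc7a1. Each cluster has its own probes, so these are orders of array signal and not of transcript number. A mark for dim signals was set at 4.66, which 95% of 1105 olfactory receptor genes did not exceed in their mean, and 30 of the 43 genes lay above it.

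**Figure D1:**
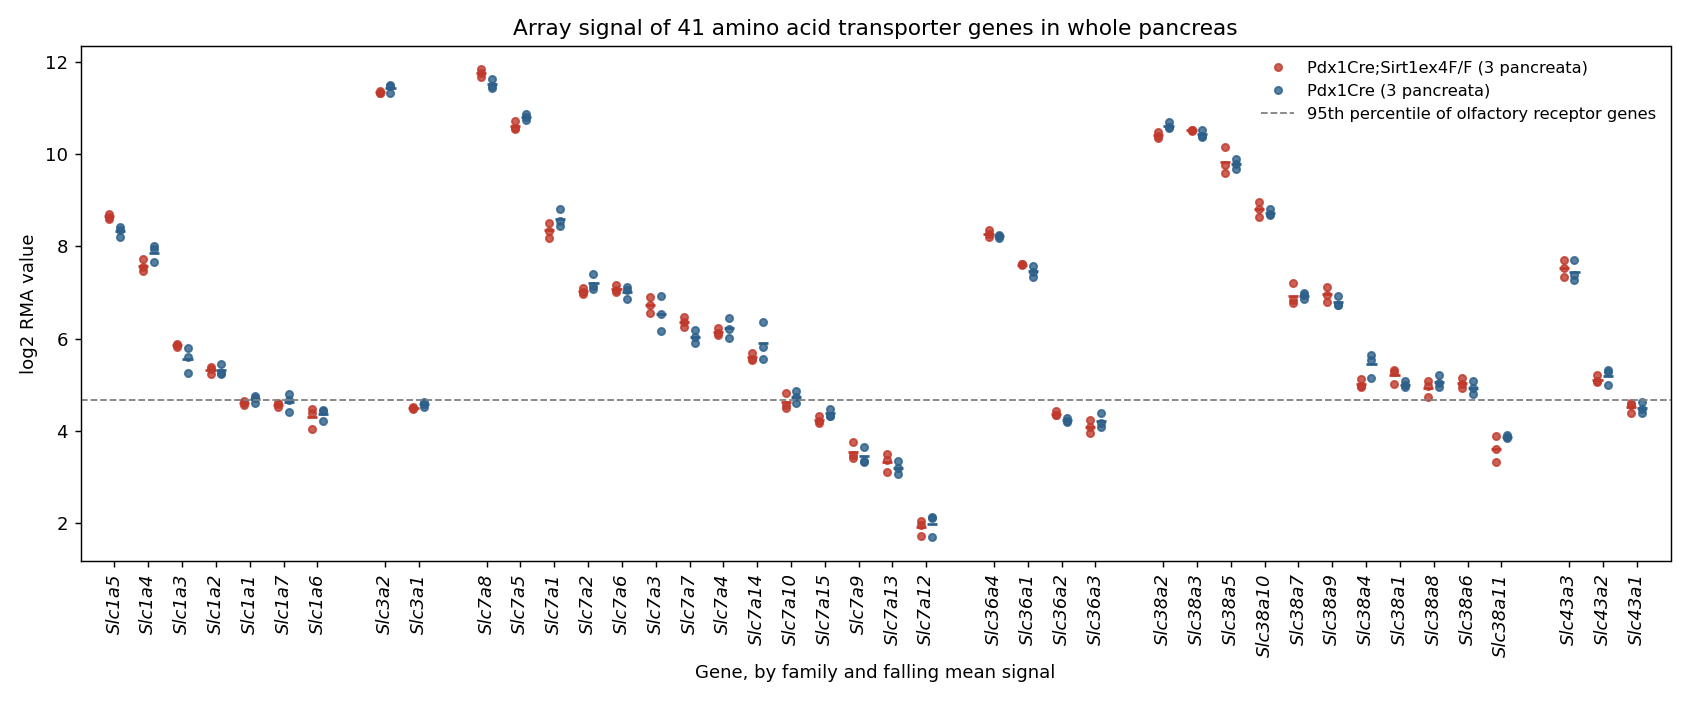
Log2 RMA values (y axis) of the 41 transporter genes in whole pancreas, by family and falling mean signal (x axis). Points are single pancreata, short bars the means of 3, and the dashed line the 95th percentile of olfactory receptor genes at 4.66; the signals run from 11.64 for Slc7a8 to 1.94 for Slc7a12, and the genotypes lie close together beside this range.

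Within Slc1, the exchangers of small neutral amino acids Slc1a5 (ASCT2, mean 8.49) and Slc1a4 (ASCT1, 7.72) gave the largest signals. Of the carriers of acidic amino acids, Slc1a3 (GLAST) read 5.70 and Slc1a2 (GLT-1) 5.32, while Slc1a1 (EAAC1, 4.64), Slc1a7 (4.59) and Slc1a6 (4.33) lay below the mark. Slc3a1, the heavy chain rBAT known from kidney and gut, read 4.53 and was dim, as was its light chain Slc7a9 at 3.49. In the cationic branch of Slc7, Slc7a1 (CAT-1) read 8.47, Slc7a2 (CAT-2) 7.12, Slc7a3 (CAT-3) 6.64, Slc7a4 6.18 and Slc7a14 5.75, and all 5 lay above the mark. Of the other light chains, Slc7a6 (y+LAT2) read 7.04 and Slc7a7 (y+LAT1) 6.20, which export cationic amino acids in exchange for neutral ones. Slc7a10 (asc-1) read 4.68, just above the mark, and Slc7a15, Slc7a13 and Slc7a12 were dim at 4.31, 3.26 and 1.94.
In Slc36, Slc36a4 (PAT4, 8.25) and the lysosomal proton-coupled carrier Slc36a1 (PAT1, 7.53) lay above the mark, and Slc36a2 (4.30) and Slc36a3 (4.15) below it. After the leading glutamine carriers of Slc38 came Slc38a10 (8.76), Slc38a7 (6.93) and Slc38a9 (6.87), a lysosomal arginine sensor of the mTORC1 pathway. Slc38a4 (SNAT4, 5.22), Slc38a1 (SNAT1, 5.10), Slc38a8 (4.996) and Slc38a6 (4.98) followed, and Slc38a11 was dim at 3.74. In Slc43, Slc43a3, known in human cells as a carrier of nucleobases, read 7.49, Slc43a2 (LAT4) 5.15 and Slc43a1 (LAT3) 4.51. Of the opposite-strand genes, the protein-coding Slc7a6os read 5.64 and the long noncoding RNA Slc36a1os 2.70. Over the 6 arrays the order was clear at the top of Slc1 (Slc1a5, Slc1a4, then Slc1a3) and of Slc7 (Slc7a8, Slc7a5, Slc7a1, then Slc7a2), where no ranges of neighbours overlapped. Of the 35 pairs of neighbours within the families, 15 overlapped in range and have no settled order. These were Slc1a3 with Slc1a2, Slc1a1 through Slc1a7 to Slc1a6, Slc36a2 with Slc36a3, Slc38a2 with Slc38a3, Slc38a7 with Slc38a9, the run of Slc38a4, Slc38a1, Slc38a8 and Slc38a6, the run of Slc7a2, Slc7a6, Slc7a3, Slc7a7, Slc7a4 and Slc7a14, and Slc7a9 with Slc7a13.

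None of the 43 genes passed the threshold of an unadjusted p under 0.01 from limma between the genotypes, which 1.63% of all genes did. None passed after Benjamini-Hochberg adjustment over all genes either, where 0.0135% did (3 of 22180), and the smallest adjusted p of the families was 0.64. At an unadjusted p under 0.05, 3 genes were on the higher side in the Sirt1-deficient pancreata (Slc1a5, Slc7a7 and Slc7a8) and 2 on the lower (Slc38a4 and Slc1a4). The background of this looser threshold was 2.89% higher, 3.76% lower and 6.66% in all, against 11.6% of the families. Of 14 other settings and left-out arrays, the p was not under 0.05 in 9 for Slc7a8, 7 for Slc1a4, 3 for Slc1a5, 2 for Slc7a7 and 1 for Slc38a4. Log2 fold changes, Sirt1-deficient minus control, ran from -0.43 for Slc38a4 to 0.32 for Slc7a7. Of these, 22 were positive and 21 negative (48.8% negative, against 54.9% of all genes). Their median was 0.002, beside -0.017 for all genes tested. Per gene, the 95% intervals reached no farther than 0.75 in either direction, a 1.68-fold difference. Single intervals do not cover all 43 genes at once. The 3 Sirt1-deficient values all lay on one side of the 3 control values in 10 of the 43 genes (23.3%), 6 higher and 4 lower, while 11.7% of all genes were separated in this way, and these shares were not tested against each other.

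**Figure D2:**
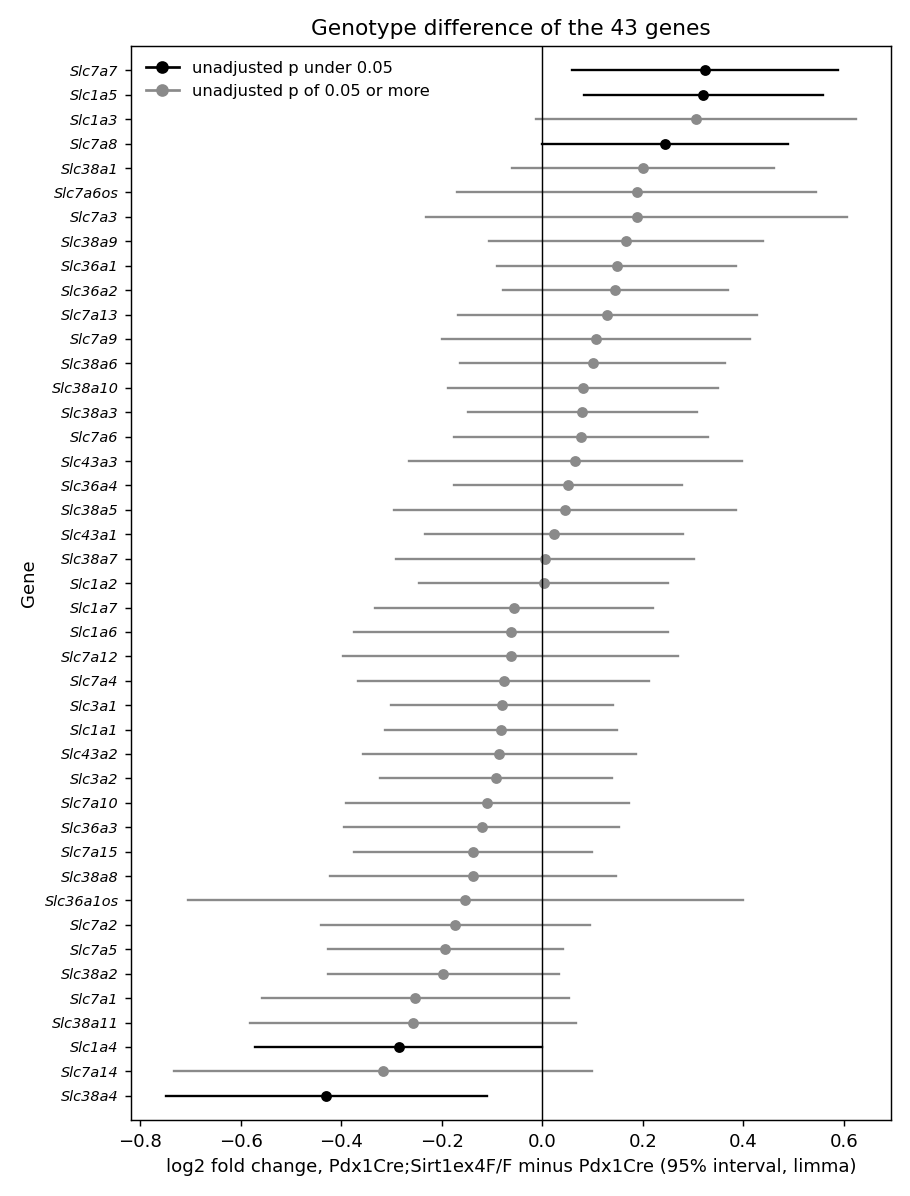
Log2 fold change of the 43 genes (x axis, Pdx1Cre;Sirt1ex4F/F minus Pdx1Cre) with 95% intervals from limma, ordered by size (y axis, n = 3 pancreata per genotype). Black marks the 5 genes with an unadjusted p under 0.05; positive and negative values are near equal in number and no interval reaches beyond 0.75.

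Slc38a4, a system A carrier of neutral amino acids, had the smallest p. Its log2 values were 4.95, 4.96 and 5.12 in the Sirt1-deficient pancreata 1, 2 and 3 and 5.53, 5.14 and 5.64 in the control pancreata 1, 2 and 3. The groups did not overlap, but the control pancreas 2 lay only just above the Sirt1-deficient pancreas 3. The difference on the log2 scale was -0.43 (SE, standard error, 0.14, limma p = 0.0136, adjusted p = 0.64), or 1.35-fold, and an exact 2-sided permutation test gave p = 0.1, the smallest that 3 against 3 pancreata allow. Without the control pancreas 2 it was -0.58, and this value passed the threshold of 0.01. Without the control pancreas 3 it was -0.33, with a limma p of 0.0573. Leaving out the control pancreas 2 took Slc7a7 (0.26) and Slc7a8 (0.21) out of the genes with an unadjusted p under 0.05. Slc1a5 (0.26) and Slc1a4 (-0.39) stayed under it. This was not particular to that pancreas. Of the 6 arrays left out in turn, the p was not under 0.05 in 5 for Slc7a8 and 4 for Slc1a4. It was not under 0.05 in 2 for Slc7a7, 1 for Slc1a5 and 1 for Slc38a4.
The other carriers of system A had different directions. Slc38a2 read 10.40, 10.36 and 10.48 in the Sirt1-deficient and 10.69, 10.58 and 10.56 in the control pancreata. All 3 Sirt1-deficient values lay below the controls, at a difference of -0.20 (SE 0.10, limma p = 0.0841, exact permutation p = 0.1). Slc38a1 read 5.20 ± 0.16 in the Sirt1-deficient and 5.002 ± 0.07 in the control pancreata (SD, n = 3 each), a value of 0.20 (SE 0.12). None of these 3 passed.

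The exchangers Slc1a5 and Slc1a4, which both carry alanine, serine and cysteine, had opposite signs. Slc1a5 also carries glutamine. It read 8.63, 8.71 and 8.60 in the Sirt1-deficient pancreata and 8.41, 8.21 and 8.36 in the control pancreata. All 3 Sirt1-deficient values lay above the controls, at a difference of 0.32 or 1.25-fold (SE 0.11, limma p = 0.0138, adjusted p = 0.64, exact permutation p = 0.1). Slc1a5 had another cluster, near the mark for dim signals at a mean of 4.82 in the Sirt1-deficient and 4.87 in the control pancreata, with a difference of -0.05 (SE 0.16).
Slc1a4 read 7.47, 7.72 and 7.54 in the Sirt1-deficient and 7.999, 7.66 and 7.93 in the control pancreata. The control pancreas 2 lay below the Sirt1-deficient pancreas 2, so the groups overlapped, and the difference was -0.29 or 1.22-fold (SE 0.13, limma p = 0.0495, adjusted p = 0.748, exact permutation p = 0.2). On each array the signal of Slc1a5 minus that of Slc1a4 was 1.15, 0.99 and 1.06 in the Sirt1-deficient pancreata and 0.41, 0.55 and 0.43 in the controls. These differences did not overlap between the genotypes, at 1.07 ± 0.08 in the Sirt1-deficient and 0.46 ± 0.08 in the control pancreata (SD, n = 3 each). Given the ranges of Slc1a5 and Slc1a4 in each genotype, these differences could not overlap however the arrays were matched. The pair therefore adds nothing to the values of the single genes. It was chosen after its values were seen and was not tested. Of 3 pairs computed, Slc38a4 minus Slc38a2 overlapped between the genotypes, at -5.45, -5.40 and -5.36 in the Sirt1-deficient and -5.16, -5.43 and -4.92 in the control pancreata.
Of the acidic amino acid carriers of the family, Slc1a3 read 5.87, 5.82 and 5.88 in the Sirt1-deficient and 5.61, 5.25 and 5.79 in the control pancreata. The groups did not overlap, but the controls spread widely and the value of 0.31 did not pass (SE 0.14, limma p = 0.0575, exact permutation p = 0.1). The other 4 had values between -0.08 and 0.002.

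**Figure D3:**
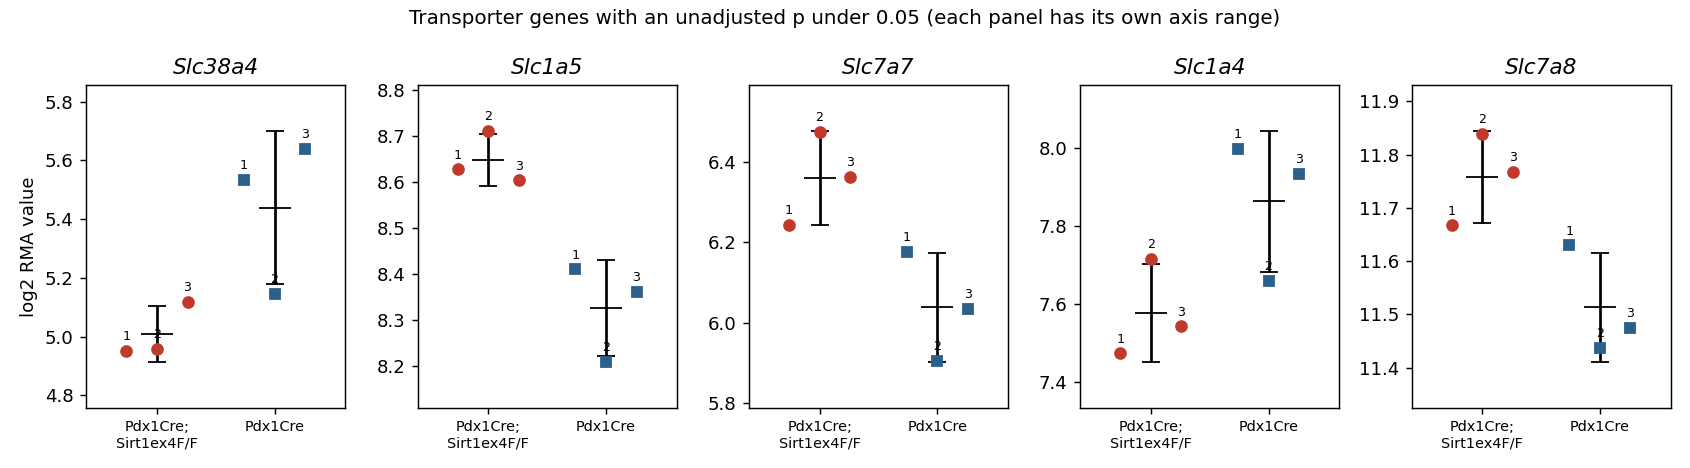
Log2 RMA values (y axis, a range of its own per panel) of the 5 genes with an unadjusted p under 0.05, in Pdx1Cre;Sirt1ex4F/F (red) and Pdx1Cre (blue) pancreata. Points are single pancreata with their replicate number, and black bars the mean ± SD of 3; the control pancreas 2 is the lowest control in each panel, and only Slc1a4 overlaps between the genotypes.

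The light chains of Slc7 gave the remaining genes under 0.05. Slc7a7 read 6.24, 6.48 and 6.36 in the Sirt1-deficient and 6.18, 5.90 and 6.03 in the control pancreata. The groups stood apart by a small gap between the Sirt1-deficient pancreas 1 and the control pancreas 1, and the difference was 0.32 or 1.25-fold (SE 0.12, limma p = 0.0216, adjusted p = 0.66, exact permutation p = 0.1). Slc7a8, the largest signal of all families, read 11.67, 11.84 and 11.77 in the Sirt1-deficient and 11.63, 11.44 and 11.47 in the control pancreata. Its groups did not overlap either, the pancreata numbered 1 again being the nearest, and they differed by 0.24 or 1.18-fold (SE 0.11, limma p = 0.0499, adjusted p = 0.75, exact permutation p = 0.1).
Slc7a5, the other partner of Slc3a2 with a large array signal, lay on the opposite side. It read 10.57, 10.55 and 10.71 in the Sirt1-deficient and 10.80, 10.74 and 10.86 in the control pancreata. Again the groups did not overlap, but the difference of -0.19 was small (SE 0.10, limma p = 0.0959, exact permutation p = 0.1). The signal of Slc7a8 minus that of Slc7a5 was 1.10, 1.29 and 1.06 in the Sirt1-deficient and 0.83, 0.70 and 0.61 in the control pancreata. Here too the genotypes did not overlap. Every Slc7a8 value was higher and every Slc7a5 value lower in the Sirt1-deficient pancreata, so this difference could not overlap. It therefore adds nothing to the values of the single genes. This pair was also picked after its values were seen and has no test.
Their heavy chain Slc3a2 read 11.32, 11.32 and 11.38 in the Sirt1-deficient and 11.47, 11.33 and 11.49 in the control pancreata. The difference of -0.09 (SE 0.10, limma p = 0.393, exact permutation p = 0.2) lay within the spread of the controls, with a 95% interval of -0.32 to 0.14. Slc3a1 had a value of -0.08, and Slc7a6, Slc7a9, Slc7a10, Slc7a12, Slc7a13 and Slc7a15 lay between -0.14 and 0.13. Slc7a11, the cystine light chain left out of the set, differed by -0.91 (SE 0.17, limma p = 0.000414, adjusted p = 0.236, exact permutation p = 0.1).

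**Figure D4:**
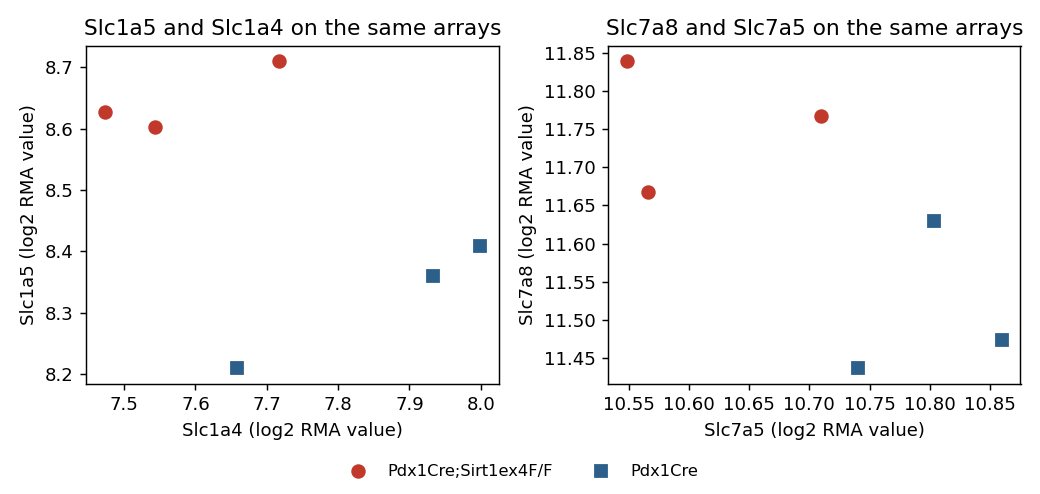
Signals of 2 gene pairs on the same 6 arrays (log2 RMA values), Slc1a5 against Slc1a4 on the left and Slc7a8 against Slc7a5 on the right. Each point is a pancreas. By their means, the Pdx1Cre;Sirt1ex4F/F pancreata (circles) lie toward the upper left of the Pdx1Cre pancreata (squares) in both panels. On the left Slc1a4 overlaps, with the Sirt1-deficient pancreas 2 to the right of the control pancreas 2. On the right neither gene overlaps between the genotypes. The pairs were chosen after their values were seen.

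Of the 5 genes of the cationic branch, 4 had negative values, as had 54.9% of all genes, and none passed. Slc7a1, the main carrier of arginine and lysine into many cells, read 8.19, 8.34 and 8.52 in the Sirt1-deficient and 8.81, 8.44 and 8.54 in the control pancreata. The Sirt1-deficient pancreas 3 lay above the control pancreas 2, and the difference was -0.25 (SE 0.14, limma p = 0.0941, exact permutation p = 0.2). Slc7a2 was at -0.17, Slc7a4 at -0.08 and Slc7a3 at 0.19. Slc7a14 was at -0.32 (SE 0.18), where the control pancreas 3 stood highest at 6.36, the other controls read 5.81 and 5.55 and the Sirt1-deficient pancreata 5.54, 5.55 and 5.68.
The system N and Slc43 carriers and, of the Slc36 family, Slc36a4 lay close to 0. Slc36a4 read 8.20, 8.35 and 8.27 in the Sirt1-deficient and 8.23, 8.18 and 8.25 in the control pancreata, a difference of 0.05 (SE 0.10). Its second cluster read 6.14 in the Sirt1-deficient and 5.88 in the control pancreata, a difference of 0.26 (SE 0.15). Slc36a1 and Slc36a2 had values of 0.15 and 0.14 without overlap of the groups, and Slc36a3 one of -0.12.
Slc38a3 was at 0.08 and Slc38a5 at 0.05, where the Sirt1-deficient pancreas 1 read 10.16, above all others. Slc38a6, Slc38a7, Slc38a9 and Slc38a10 had values between 0.005 and 0.17, Slc38a8 one of -0.14 and Slc38a11 one of -0.26. The second cluster of Slc38a10 lay near the mark, at 4.74 in the Sirt1-deficient and 4.84 in the control pancreata. Slc43a3 read 7.33, 7.53 and 7.70 in the Sirt1-deficient and 7.38, 7.26 and 7.71 in the control pancreata, a difference of 0.07 (SE 0.15). Slc43a1 and Slc43a2 were at 0.02 and -0.09, and the opposite-strand genes Slc7a6os and Slc36a1os at 0.19 and -0.15.

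The pooled SD of the genes within a genotype had a median of 0.139, near the 0.155 of all genes, and was largest for Slc36a1os (0.42), Slc7a3 (0.30) and Slc7a14 (0.30). The control pancreas 2 held the lowest of the 6 values in 13 of the 43 genes, and it was the lowest control in all 5 genes with a p under 0.05. The control pancreas 3 held the highest value in 13 genes and the Sirt1-deficient pancreas 2 the lowest in 10, and the Sirt1-deficient pancreas 1 was the lowest of its genotype in 4 of those 5. The mean of the 43 genes, each centred on its own mean, was -0.040, -0.024 and 0.051 in the Sirt1-deficient and 0.024, -0.036 and 0.025 in the control pancreata, so these overlapped.

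Sets of related genes from outside these families were read in the same fit. Of 15 measured among 16 other amino acid and peptide transporters of the plasma membrane, 9 mitochondrial amino acid carriers and 8 vesicular or lysosomal carriers, none passed at an unadjusted p under 0.01. Their median log2 fold changes were -0.042, -0.063 and -0.088. Under 0.05 lay the peptide transporter Slc15a2 (PEPT2) at -0.66 and the lysosomal sialic acid carrier Slc17a5 (sialin) at 0.38, named after their values were seen. Of all genes, 6.66% lay under 0.05. Of 5 partner proteins of the transporters 2 were measured and neither passed. Of 32 measured among 33 genes of amino acid sensing by mTORC1 and GCN2, 1 was higher, 1 was lower and 30 did not pass, with a median of -0.021. The higher one was Castor2, a relative of the arginine sensor Castor1, which read 6.24, 6.29 and 6.49 in the Sirt1-deficient and 5.99, 5.82 and 5.85 in the control pancreata. It differed by 0.46 (SE 0.11, limma p = 0.00271, adjusted p = 0.427, exact permutation p = 0.1). Fnip2, which acts with folliculin on the Rag GTPases, read 7.26, 7.16 and 7.12 in the Sirt1-deficient and 7.66, 7.51 and 7.45 in the control pancreata, a difference of -0.36 (SE 0.11, limma p = 0.00832, adjusted p = 0.594, exact permutation p = 0.1). In neither gene did the genotypes overlap, but both were named for a small p, so this adds nothing to it. Of all genes, 11.7% were separated in this way. At an unadjusted p under 0.05, 1 of the 32 genes was higher and 4 were lower (15.6%, against 6.66% of all genes). These shares were not tested against each other.

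The arrays showed the labelled tissue, with all 9 measured of 11 acinar markers above the 95th percentile of all genes and 6 of 7 lymphocyte markers below the mark for dim signals. Sirt1 read 5.59, 5.69 and 5.83 in the Sirt1-deficient and 5.84, 5.78 and 5.80 in the control pancreata (difference -0.11, SE 0.11, exact permutation p = 0.3). Whether its probes lie in exon 4 was not determined, so this value does not check the deletion. The study itself reported less Sirt1 transcript by RT-qPCR in total pancreas and in islets. It also reported a shortened Sirt1 protein in lysates of total pancreas. No acinar marker passed at an unadjusted p under 0.01 (median 0.008), while 2 of 8 endocrine markers were lower (the hormone gene Ppy at -0.83 and the glucose transporter gene Slc2a2 at -0.57, median of the 8 -0.37). The centred mean of the endocrine markers ran from -0.32 to 0.02 in the Sirt1-deficient and from -0.10 to 0.36 in the control pancreata, with the control pancreas 2 the lowest control. That of the 5 endothelial markers ran from 0.04 to 0.11 in the Sirt1-deficient and from -0.20 to 0.04 in the control pancreata, again with the control pancreas 2 lowest. The log2 fold changes of the endothelial markers had a median of 0.21, with 3 positive and 2 negative (lowest -0.10). At an unadjusted p under 0.05, 2 of the 5 were on the higher side, as were 2.89% of all genes. For the 6 macrophage markers it ran from -0.22 to 0.24 in the Sirt1-deficient and from 0.01 to 0.10 in the control pancreata. All 7 fibroblast markers had negative values (median -0.16), as had 54.9% of all genes. No fibroblast, endothelial, macrophage, duct, lymphocyte, adipocyte or Schwann cell marker passed at 0.01. At 0.05, 1 acinar and 1 duct marker were on the higher side and 3 endocrine and 1 fibroblast marker on the lower. Of all genes 2.89% were higher and 3.76% lower at that threshold. The part of these cell types in the values of the transporter genes was not tested.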

How the data were processed

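RNA of 6 whole pancreata, 3 per genotype, was measured on GeneChip Mouse Gene 2.0 ST arrays. The deposited log2 values are the authors' Robust Multi-array Average (RMA) output from oligo in R, which corrects background, equalizes the distributions of the arrays and gives 1 value per transcript cluster (versions: not given in the sources used here). RMA assumes like distributions on all arrays, so a shift shared by most genes would not be seen. Of 41345 clusters, the 23521 with 1 symbol in the platform annotation gave 22180 genes. Gene IDs of all 43 family genes matched RefSeq (GRCm38.p6) under the same symbol; the array table names no build, and coordinates are those of RefSeq.

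Genotypes were compared over all genes with limma (version 3.58.1, R version 4.3.3; lmFit and eBayes, no covariates), Sirt1-deficient minus control, at an unadjusted p under 0.01, the threshold of the study's methods, with Benjamini-Hochberg adjustment over all genes. The fit was tested on simulated data. The number of arrays limits the precision. The array medians lay between 4.48 and 4.57. The genes and lists were chosen with earlier results of these data known. Values of every array are given for genes with p under 0.05, for the 8 with the smallest p and for the largest signal of each family, with a few others named after their values were seen, and from each related list the up to 4 genes with the smallest p under 0.01. The alternatives were other centring, normalization, filters, variance models, clusters and thresholds, the replicate block and each array left out.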

Additional observations from a re-analysis of the deposited data

How the results depend on the processing

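The counts of genes that passed depended on settings near the threshold. Against 0 higher at an unadjusted p under 0.01, the count was 1 after a second quantile normalization or with only genes above the mark for dim signals (Slc1a5, at 0.34 and 0.32 on the log2 scale), 2 with an intensity trend and robust moderation (Slc1a5 at 0.32 and Slc7a8 at 0.24), and 3 at an unadjusted p under 0.05. Against 0 lower, it was 1 with only genes above that mark, with array weights or with the replicate number as a block (Slc38a4, at -0.43, -0.52 and -0.43), and 2 at an unadjusted p under 0.05. With single arrays left out it was 0 to 1, and the 1 came without the control pancreas 2; Slc38a4 then ran from -0.58 to -0.33 and Slc1a5 from 0.26 to 0.36. With p adjusted over all genes no family gene passed in the fit as reported. Slc1a5 read 0.14 with the mean of its clusters and turned to -0.05 with the cluster of the lowest mean, where the median of the families was -0.057 in place of 0.002. The 2 opposite-strand genes, left out after the data were seen, changed no count. The shares of all genes that passed were 1.98% after the second normalization, 2.5% above the mark, 1.93% with trend and robust moderation, 2.41% with array weights, 1.68% with the block and 2.13% without the control pancreas 2, against 1.63% as reported. The signs of Slc38a4, Slc7a7, Slc1a4 and Slc7a8 were kept under every alternative run, but for many alternatives this was fixed in advance. The filter, trend and robust moderation, the block and the choice of cluster left the fold changes of these genes unchanged. Leaving out 1 array cannot turn the sign of Slc38a4, Slc7a7 or Slc7a8, whose groups did not overlap. The kept signs are therefore no added support. An unadjusted p under 0.05 was not kept under every alternative. The limma p reached 0.0752 for Slc7a8 and 0.0771 for Slc1a4 with the replicate block. With single arrays left out it reached at most 0.152 for Slc7a8, 0.159 for Slc1a4, 0.0845 for Slc7a7, 0.0573 for Slc38a4 and 0.0521 for Slc1a5. The replicate numbers are shared between genotypes, but deviations of same-numbered pancreata correlated at -0.107, 0.164 and 0.163 over all genes, so the numbers were not taken as pairs. The number of arrays, 3 per genotype, limits the precision.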
